A study of Homo sapiens with 36 samples.

Results

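This account covers chromatin binding of tagged HIF-α proteins at 8 genes of oxygen and iron metabolism, which are EPO, TFRC, TF, CP, SLC11A2, CYBRD1, SLC40A1 and HMOX1. They are 8 of the 19663 protein-coding genes of GENCODE release 44 on the human build hg38. A binding peak was assigned to a gene when its summit lay in the gene body or within 50 kb on either side, and 181 of the 213711 deposited peaks met that rule for these genes. All data came from 786-O, a clear cell renal cell carcinoma line without functional VHL. According to the paper, 786-O also has no functional HIF-1α of its own, because that gene carries a truncating mutation. Binding was measured by Cut&Run, in which an antibody directs a nuclease to cut out the DNA fragments bound by its target. An antibody to the V5 tag was used in 6 lines, each with 3 biological replicates and with a matched mouse IgG library for every replicate.

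WT cells carried no tag and gave the background of the antibody. KIN is a single homozygous clone, A31, with V5 and HaloTag fused to the N-terminus of endogenous HIF-2α. The remaining 4 lines stably expressed an N-terminal V5-HaloTag fusion under an L30 promoter, and their untagged endogenous HIF-2α was still present. The fusions were HIF-2α, HIF-1α, the chimera HIF-2α/1α with residues 1 to 365 of HIF-2α followed by residues 364 to 826 of HIF-1α, and the chimera HIF-1α/2α with residues 1 to 363 of HIF-1α followed by residues 366 to 870 of HIF-2α. The N-terminal part of each protein holds the DNA-binding domain (DBD) and the dimerization domains, and the C-terminal part is the intrinsically disordered region (IDR). All cells shared the VHL-deficient background and no treatment was named, so no line had a state without stable HIF-α. The 5 lines other than WT are called tagged.

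HIF-α subunits pair with HIF-1β and bind the hypoxia response element (HRE), a short motif with the core ACGTG or GCGTG. When oxygen is low, HIF raises the red cell hormone erythropoietin (EPO), and genes that bring iron to the marrow and make it usable are induced alongside. Transferrin (TF) carries iron in plasma, its receptor (TFRC) takes it into cells, and ceruloplasmin (CP) is the copper ferroxidase that oxidizes iron before transferrin loads it. DMT1 (SLC11A2), the ferric reductase DCYTB (CYBRD1) and the exporter ferroportin (SLC40A1) move iron across the gut epithelium, where HIF-2α is known to regulate them. Heme oxygenase-1 (HMOX1) breaks down heme and releases its iron.

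Peaks of all lists were merged where they overlapped, which gave 45 regions in the windows of the 8 genes. Of these, 22 were called in at least 2 of the 18 libraries and 23 in a single library, and 3 were called only in WT. A total of 7 regions were called in at least 8 of the 15 tagged libraries, and 3 in all 15. Over the whole genome, 25783 of 61215 merged regions were called in at least 2 libraries. Of those 25783, 9278 were called in at least 8 tagged libraries and 1720 in all 15. Sequence is shown for 5 of the 7 member regions called in at least 8 tagged libraries, since the results turn on them. Each window spans the summit of the strongest peak and the HRE match shown, with at most 45 bp on either side, and exons were left out. All are from hg38, written 5′ to 3′ on the strand of the gene, with each HRE core in capitals, extended by 1 base to TACGTG where the base before the core is T. A match on the opposite strand is shown as its complement. The EPO region is chr7:100723775-100723917 (plus strand) and TFRC is chr3:196082154-196082333 (minus). CP is shown at chr3:149225343-149225512 and chr3:149222054-149222209 (both minus). HMOX1 is shown at chr22:35351044-35351169 (plus).
EPO, 3′ flank: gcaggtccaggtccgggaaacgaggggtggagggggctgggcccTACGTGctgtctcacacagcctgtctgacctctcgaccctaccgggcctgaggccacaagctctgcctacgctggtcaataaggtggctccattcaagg
TFRC, promoter: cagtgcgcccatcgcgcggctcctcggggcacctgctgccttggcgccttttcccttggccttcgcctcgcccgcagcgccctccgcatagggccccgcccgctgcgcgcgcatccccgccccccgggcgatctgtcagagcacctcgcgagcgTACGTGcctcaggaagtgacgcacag
CP, 3.6 kb upstream: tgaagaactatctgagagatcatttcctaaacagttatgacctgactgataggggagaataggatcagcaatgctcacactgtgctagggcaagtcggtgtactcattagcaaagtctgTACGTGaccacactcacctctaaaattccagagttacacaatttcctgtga
CP, 0.3 kb upstream: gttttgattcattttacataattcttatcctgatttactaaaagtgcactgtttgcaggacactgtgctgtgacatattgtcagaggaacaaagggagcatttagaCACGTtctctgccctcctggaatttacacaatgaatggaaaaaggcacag
HMOX1, 29.2 kb upstream: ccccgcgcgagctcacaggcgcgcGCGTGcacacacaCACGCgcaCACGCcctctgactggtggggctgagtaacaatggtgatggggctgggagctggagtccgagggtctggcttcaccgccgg

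The lists differed widely in length. They held 392, 9508 and 743 peaks in WT and 3984 to 20808 peaks in the tagged libraries, and the genome-wide mean background recovered from the peak statistics was 0.241 to 0.593 fragments per base. WT replicate 2 stood apart from the other WT libraries in its length, and 9 of the 11 WT peaks in these gene windows came from it. Replicate 2 was also the longest list of each tagged line. Position in a list is therefore given below as a rank percentile by the deposited p-value, with 100 at the strongest peak. Fold enrichment is the deposited value at the summit, the fragment pileup over the local background with 1 added to both.

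**Figure D1:**
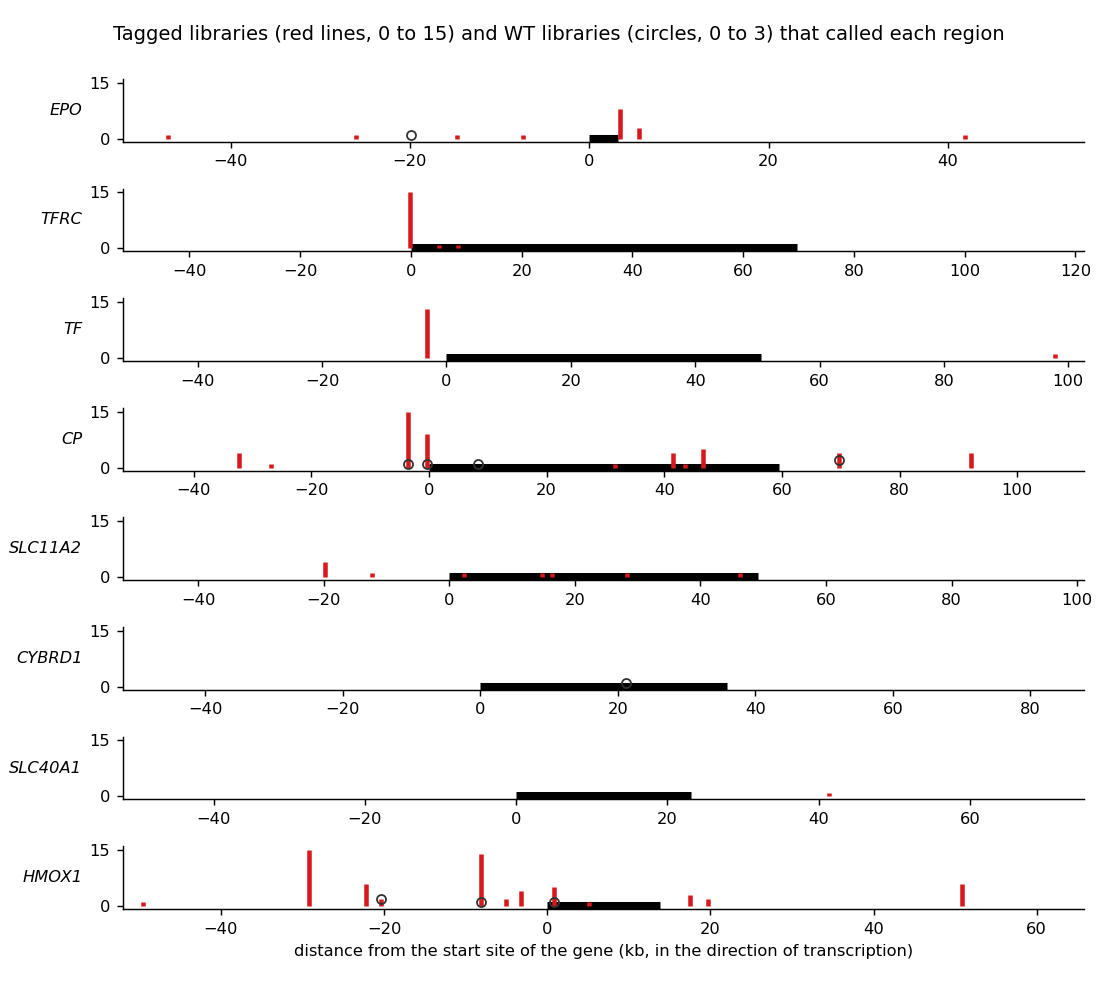
Regions in the window of each gene by distance from its start site (x axis, kb, in the direction of transcription) against the number of libraries that called them (y axis). Red lines give tagged libraries out of 15, circles WT libraries out of 3, and black bars the gene body. The tall lines sit at the TFRC start site, upstream of TF, CP and HMOX1 and just past the 3′ end of EPO, while CYBRD1 and SLC40A1 have none.

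At the level of whole gene windows, the 8 genes were called about as often as genes in general in most lines. A gene was counted for a line when a summit lay in its window in at least 2 of 3 lists, at whatever position. In WT the count was 2 of 8 members, CP and HMOX1, with 6.24% of all protein-coding genes counted. It was 4 of 8 in KIN (38.5% of all genes). HIF-1α counted 6 (68.2%), HIF-2α also 6 (43.8%), the chimera HIF-1α/2α 5 (59.4%) and the chimera HIF-2α/1α 6 (66.3%). The HIF-2α count was 3 without replicate 2 or with 3 of 3 libraries required, and the WT count 0 under the same changes. TFRC, TF, CP and HMOX1 were counted in all 5 tagged lines, and the share of all genes counted in all 5 was not computed. The WT counts rested on a region in an intron of the neighboring HPS3 gene 69.8 kb past the CP start, called in WT replicates 2 and 3, and on a region 20.4 kb upstream of HMOX1, called in WT replicates 1 and 2. In HIF-1α, EPO was counted only through single calls at the start sites of GNB2 and GIGYF1. TFRC, CP and HMOX1 had a call in every tagged library, as had 16.7% of all genes.

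Within 1 kb of an annotated start site, TFRC was called in at least 2 of 3 libraries in KIN, where 8.05% of all genes were. TFRC and CP were called there in HIF-1α (26.9%), HIF-2α (10.9%) and HIF-1α/2α (19.2%), and HMOX1 joined them in HIF-2α/1α (25.3%). The CP calls include an alternative start site inside the gene. No member was called there in WT (0.295%). Only TFRC among the 8 had a promoter call in all 15 tagged libraries, a property of 2.57% of genes.

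**Figure D2:**
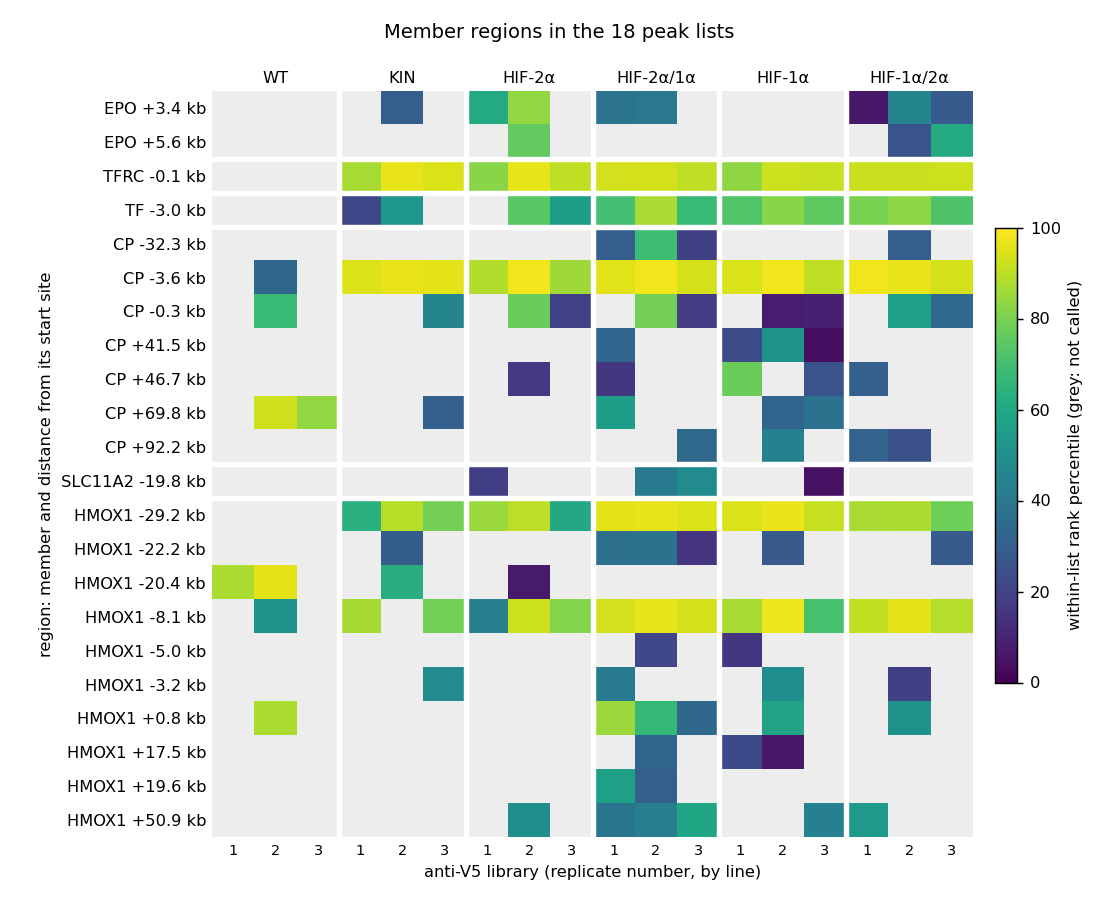
Within-list rank percentile (color) of the 22 regions called in at least 2 libraries (rows, named by gene and distance from its start site) in the 18 anti-V5 libraries (columns, by line and replicate). Grey cells are not called. The TFRC promoter, CP 3.6 kb upstream and HMOX1 29.2 kb upstream are filled in all 15 tagged libraries, and EPO 3.4 kb downstream is empty in all 3 HIF-1α libraries.

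The main EPO region lay in the 3′ flank. It spanned chr7:100722905-100724518, with the summit 3.4 kb downstream of the start site and 172 bp past the annotated end of the gene, in intergenic sequence. This is where the oxygen-responsive enhancer of EPO was originally mapped in hepatoma cells, and the core of the TACGTG shown above was centred 50 bp before the summit. The region was called in 8 tagged libraries and in no WT library. It was called in KIN replicate 2, with a fold enrichment of 5.22. In HIF-2α it was called in replicates 1 and 2, at 10.2 and 25.8. In HIF-2α/1α it was called in replicates 1 and 2, at 6.31 and 10.4. It was called in all 3 HIF-1α/2α libraries at 4.46, 8.23 and 6.82, a mean of 6.50 ± 1.91 (SD, n = 3). It was called in no HIF-1α library, and those lists held 15058, 20572 and 15909 peaks. Why it was not called there was not tested. The called peaks were weak, since their median percentile was 39.1 and only HIF-2α replicate 2 passed 80, at 83.9. The HIF-2α replicate 2 peak rested on 40 fragments at the summit, and the other 7 on 6 to 21.

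By IDR, the EPO 3′ region was called in 5 of the 6 libraries with the HIF-2 IDR (the HIF-2α and HIF-1α/2α lines) and in 2 of the 6 with the HIF-1 IDR (HIF-1α, and the chimera HIF-2α/1α). Fisher's exact test, two-sided, gave p = 0.242, with an adjusted p of 1 over the 25783 regions called in at least 2 libraries. By DBD the counts were 4 of 6 with the HIF-2 DBD and 3 of 6 with the HIF-1 DBD. Tagged against WT gave 8 of 15 against 0 of 3 (exact p = 0.216, adjusted p = 0.639). A second region, 5.6 kb downstream of the EPO start, was called in HIF-2α replicate 2 and HIF-1α/2α replicates 2 and 3. Its fold enrichment there was 17.2, 4.22 and 10.7. By IDR this was 3 libraries with the HIF-2 IDR and 0 with the HIF-1 IDR (Fisher's exact test, p = 0.182, adjusted p = 1). No library had a call within 1 kb of the EPO start site. The other 6 EPO regions were in single libraries, including 1 only in WT, and all 6 lay nearer to a start site of GNB2, GIGYF1, POP7 or ZAN than to that of EPO.

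TFRC had a strong peak at its promoter in every tagged library and in no WT library. The region, chr3:196081104-196083013, had its summit 135 bp upstream of the annotated gene. The fold enrichment was 12.2, 33.4 and 24.5 in KIN and 14.8, 51.5 and 22.2 in HIF-2α (replicates 1, 2 and 3). It was 14.1, 29.1 and 20.0 in HIF-1α, 27.9, 25.3 and 30.4 for HIF-1α/2α, and 20.3, 23.5 and 17.1 in HIF-2α/1α. The ranges of all 5 tagged lines overlapped except those of the chimeras, where the highest HIF-2α/1α library was below the lowest HIF-1α/2α library. The rank percentile ran from 82.1 to 96.6, with a median of 92.0, and 32 to 246 fragments lay at the summit. The 15 of 15 against 0 of 3 calls gave p = 0.00123 in Fisher's exact test and an adjusted p of 0.0263, the smallest this design allows, which 4.66% of all regions reached. Only 1 other member region reached it, and leaving out any WT library ended both calls because 2 WT libraries cannot give a p that low. The test took no account of list length, which was 392, 9508 and 743 peaks in WT against 3984 to 20808 in tagged libraries.

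The transferrin receptor promoter held 6 HRE matches, of which 2 read TACGTG. These stood 112 bp from the summit on the side of the gene, at the downstream end of the sequence shown, and 197 bp on the far side. Summits of the tagged libraries lay at -42 to 6 bp from the strongest one. The remaining TFRC peaks were 2 weak intronic calls in single libraries, both of HIF-2α/1α, at percentiles 6.48 and 1.90. The second of them lay 61 bp past an alternative start site.

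Transferrin itself had no promoter peak but was called 3.0 kb upstream in 13 of 15 tagged libraries and in no WT library. The fold enrichment was 5.66 and 6.94 in KIN replicates 1 and 2, and 15.4 and 8.78 in HIF-2α replicates 2 and 3. It was 10.7, 14.1 and 10.3 in HIF-1α, 15.4, 21.0 and 13.0 for HIF-1α/2α, and 10.4, 36.3 and 12.5 in HIF-2α/1α. KIN gave the lowest values, below every exogenous library that called the region, and KIN replicate 3 and HIF-2α replicate 1 did not call it. The percentile was 21.8 and 52.7 in KIN, 55.8 and 74.4 in HIF-2α, and 67.4 to 87.3 in the other lines. Tagged against WT gave p = 0.0123 in Fisher's exact test, which did not hold after adjustment (adjusted p = 0.120).

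**Figure D3:**
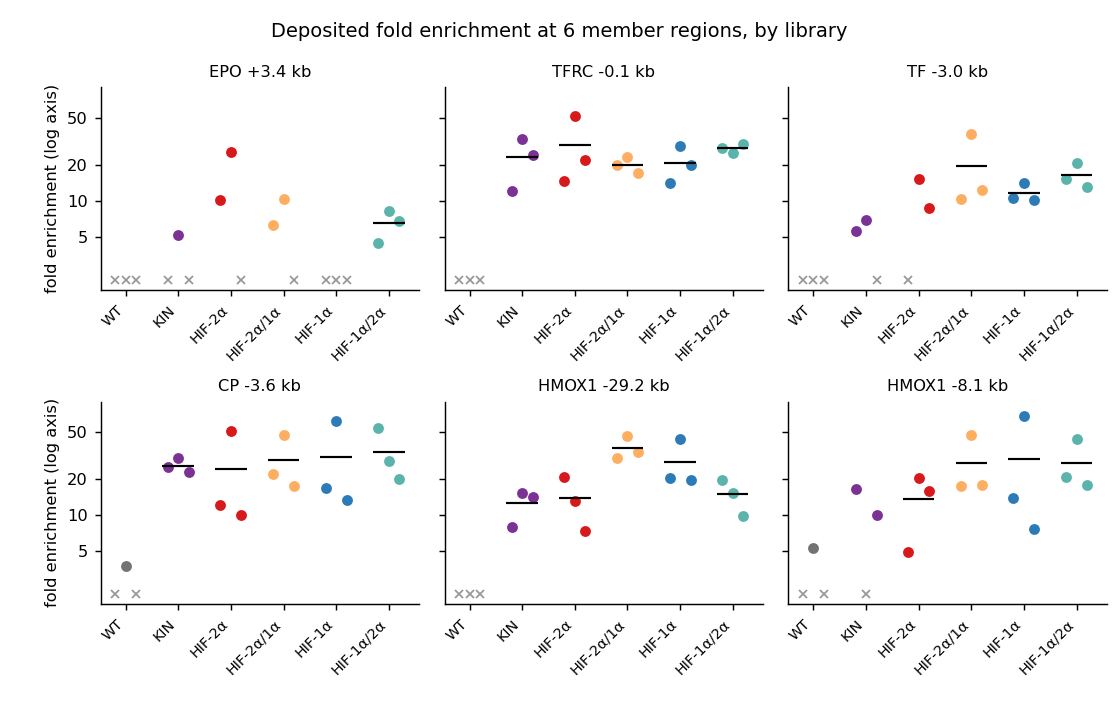
Deposited fold enrichment (y axis, log scale) at 6 member regions in each library of the 6 lines. Points are libraries in the order of replicates 1 to 3, grey crosses mark libraries without a call, and black lines are means where all 3 libraries called the region. HIF-2α/1α (30.1 to 46.4) lies above HIF-2α (7.33 to 21.0) at HMOX1 29.2 kb upstream, and HIF-1α has crosses only at EPO.

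Ceruloplasmin had the highest ranked region of the 8 genes. It lay 3.6 kb upstream of the start site, at chr3:149223914-149226041, and was called in all 15 tagged libraries and in WT replicate 2. The fold enrichment was 25.3, 30.2 and 23.0 in KIN and 12.1, 50.6 and 10.1 in HIF-2α. It was 17.0, 62.1 and 13.4 in HIF-1α, 53.5, 28.3 and 20.2 for HIF-1α/2α, and 22.3, 47.4 and 17.8 in HIF-2α/1α, against 3.78 in the WT library. All tagged lines overlapped, and replicate 2 was the highest in 4 of the 5. The percentile was 85.8 to 98.0 in tagged libraries with a median of 95.5, and 33.9 in WT replicate 2. The summit stood 77 bp from the TACGTG shown above. The adjusted p for tagged against WT was 0.166 (Fisher's exact test, p = 0.0196), with 15 of 15 libraries against 1 of 3.

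The CP promoter proper had weak calls. A region with its summit 335 bp upstream of the start, at chr3:149220976-149222668, was called in 9 tagged libraries, 1 of KIN and 2 of each exogenous line, and in WT replicate 2. In tagged libraries the fold enrichment ran from 3.82 to 23.4 with a median percentile of 34.1. The WT peak reached 6.54 at percentile 67.8, with its summit inside the gene. Tagged summits lay at -39 to 696 bp from the strongest one, so they too reached into the gene. Tagged against WT gave 9 of 15 libraries against 1 of 3 (Fisher's exact test, p = 0.559). Within the gene, a region 41.5 kb downstream of the start, 691 bp before an alternative start site, was called in all 3 HIF-1α libraries and 1 HIF-2α/1α library, so in 4 of 6 libraries with the HIF-1 IDR and 0 of 6 with the HIF-2 IDR (exact p = 0.0606, adjusted p = 1). A region 32.3 kb upstream was called in all 3 HIF-2α/1α libraries and in HIF-1α/2α replicate 2. The remaining CP regions called more than once were an intronic one at 46.7 kb, called in 5 tagged libraries, the HPS3 intron, called in 4 tagged and 2 WT libraries, and the HPS3 start site, called in 4 tagged libraries.

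HMOX1 had 12 regions, the most of the 8 genes, and 10 of them were called in at least 2 libraries. The region 29.2 kb upstream (chr22:35350425-35352418), in intergenic sequence, was called in all 15 tagged libraries and in no WT library. The fold enrichment was 7.95, 15.5 and 14.3 in KIN and 21.0, 13.3 and 7.33 in HIF-2α. It was 20.4, 43.9 and 19.7 in HIF-1α, 19.9, 15.5 and 9.86 for HIF-1α/2α, and 30.1, 46.4 and 33.8 in HIF-2α/1α. The HIF-2α/1α libraries lay above every HIF-2α and HIF-1α/2α library. By percentile, the 6 libraries with the HIF-1 IDR lay between 91.1 and 97.0, the 6 with the HIF-2 IDR between 60.5 and 89.9, and KIN between 63.7 and 89.1. The lists differ in length, and by rank the groups overlapped, since HIF-2α replicate 1 ranked at 987 and HIF-1α libraries at 612.5 to 1422. The IDR difference in percentile did not pass the test (limma adjusted p = 0.202). This was the other region with an adjusted p of 0.0263 for tagged against WT. It held 8 HRE matches and no TACGTG, and 3 of them lay 33 to 54 bp before the summit, as shown above.

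The region 8.1 kb upstream of HMOX1 was called in 14 tagged libraries, all but KIN replicate 2, and in WT replicate 2. The fold enrichment was 16.5 and 10.1 in KIN replicates 1 and 3 and 4.92, 20.5 and 16.0 in HIF-2α. It was 14.0, 68.0 and 7.65 in HIF-1α, 20.9, 43.7 and 18.0 for HIF-1α/2α, and 17.7, 47.2 and 18.0 in HIF-2α/1α, against 5.37 in WT. The exogenous lines overlapped one another, while the 2 KIN values lay below all those of both chimeras. Replicate 2 gave the highest value in each exogenous line, so that the HIF-1α mean was 29.9 ± 33.2 (SD, n = 3). Tagged against WT gave an adjusted p of 0.301 (Fisher's exact test, p = 0.0564).

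The start site of HMOX1 was called less often. A region 100 bp past an annotated start site, in a coding exon, was called in all 3 HIF-2α/1α libraries, in replicate 2 of HIF-1α, HIF-1α/2α and WT, and in no KIN or HIF-2α library. The stress response of HMOX1 is known to run through upstream enhancers bound by NRF2, BACH1 and AP-1 factors. A region 3.2 kb upstream had an AP-1 motif (TGACTCA or TGAGTCA, both strands) within 50 bp of its summit, as had 8.27% of all regions. It was called in 4 tagged libraries, 1 each of KIN, HIF-1α and both chimeras, at 4.06 to 7.67-fold. A region 22.2 kb upstream, also with an AP-1 motif, was called in 6 tagged libraries, 3 of them HIF-2α/1α. The region 50.9 kb downstream was called in 6 tagged libraries, again with all 3 of HIF-2α/1α. The others were a pair near the start of MCM5, a region 5.0 kb upstream called in 2 tagged libraries, and the region 20.4 kb upstream noted above, which was called in 2 of 3 WT and only 2 of 15 tagged libraries.

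The genes of gut iron transport had few repeated regions. SLC11A2 had 7 regions, of which 6 were single calls. Its only repeated region lay 19.8 kb upstream, 1 bp from the start site of LETMD1, and was called in 4 tagged libraries at 4.29 to 9.03-fold. A HIF-1α/2α library had a call 39 bp before an SLC11A2 start site, at percentile 29.5. CYBRD1 had 1 peak, in an intron and in a WT library, and no tagged call. SLC40A1 had 1 peak, 18183 bp past the end of the gene in HIF-1α/2α replicate 2, at a fold of 16.8 and percentile 78.1. A gene absent from the lists may still be bound below the q-value threshold of the peak caller, and the peaks listed went down to 4 fragments at the summit.

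For the regions called in all 12 exogenous libraries, the fold enrichment was compared across the DBD and IDR with limma over all 2720 such regions, after centring each library on its median log2 fold. The member regions in this set were TFRC at the promoter, CP at 3.6 kb and HMOX1 at 29.2 and 8.1 kb upstream. None passed an adjusted p of 0.05 by IDR, where 2.28% of all regions did (15 lower and 47 higher with the HIF-2 IDR), or by DBD, where 3.12% did. At an unadjusted p under 0.05 the counts were 2 of 4 by IDR, with 455 of all 2720 regions, and 0 of 4 by DBD, with 445. The region 29.2 kb upstream of HMOX1 was lower with the HIF-2 IDR by a log2 difference of -0.88 ± 0.34 (SE, 95% interval -1.56 to -0.20, limma adjusted p = 0.146). The TFRC promoter was higher with the HIF-2 IDR by 0.70 ± 0.34 (0.03 to 1.37, limma adjusted p = 0.269). For CP the IDR difference was 0.21 ± 0.35 (-0.48 to 0.91), and for the HMOX1 region at 8.1 kb -0.05 ± 0.36 (-0.76 to 0.66). By DBD, the differences of HIF-2 over HIF-1 were between -0.40 ± 0.36 and 0.13 ± 0.34. An interaction of DBD and IDR was seen at none of the 4 regions or of all 2720 regions (limma adjusted p = 1.00 for each member).

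The deposited fold has the local background in its denominator. The comparison was therefore repeated on the summit pileup over the mean background of the library, recovered from the deposited statistics. On this scale HMOX1 at 29.2 kb stood at 82.5, 228 and 86.8 times the mean background in HIF-2α and 87.8, 229 and 129 times in HIF-1α/2α. With the HIF-1 IDR it stood at 152, 385 and 172 (HIF-1α) and 257, 467 and 249 (HIF-2α/1α). The groups overlapped on these values, since replicate 2 of both HIF-2 IDR lines was above replicates 1 and 3 of HIF-1α. These values are not centred, while the fit centred each library on its median log2 value. The log2 IDR difference was -0.79 ± 0.13 (SE, limma adjusted p = 1.26e-04), so the call at this region depended on the measure. With this measure 42.7% of all regions passed by IDR, 661 higher and 501 lower with the HIF-2 IDR, and the HMOX1 region was 1 of them. The TFRC difference by IDR shrank to 0.07 ± 0.14 (limma adjusted p = 0.724). By DBD, where 30.1% of regions passed, TFRC was higher with the HIF-2 DBD by 0.42 ± 0.14 (limma adjusted p = 0.0266), against -0.08 on the deposited fold.

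**Figure D4:**
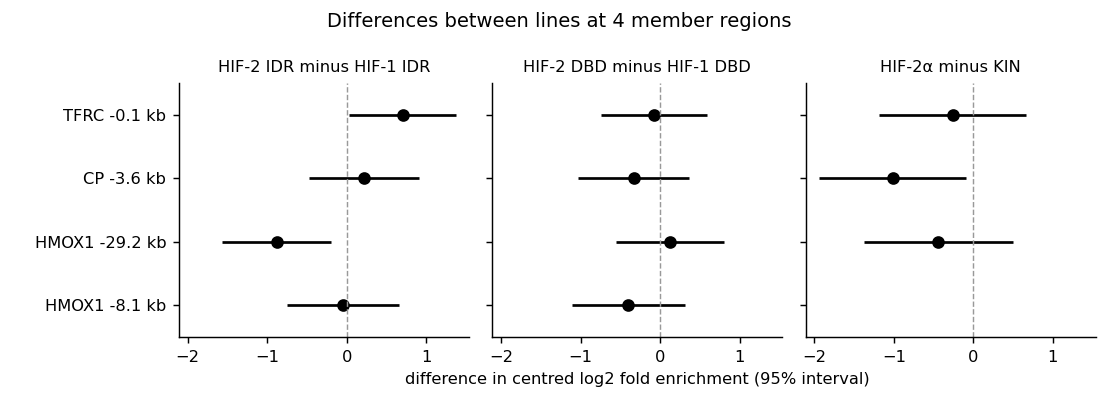
Difference in centred log2 fold enrichment (x axis) with its 95% interval, not adjusted for the number of regions, at the member regions called in every library compared (y axis). Left and middle, 6 against 6 exogenous libraries by IDR and by DBD. Right, 3 HIF-2α against 3 KIN libraries, without HMOX1 8.1 kb upstream, which KIN replicate 2 did not call. The interval lies below 0 for HMOX1 29.2 kb upstream by IDR (-1.56 to -0.20), and above it for TFRC (0.03 to 1.37).

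Exogenous HIF-2α and the endogenous knock-in were compared over the 1815 regions called in all 6 of their libraries. No member passed an adjusted p of 0.05, as 0.551% of all regions did, and 1 of 3 had an unadjusted p under 0.05, with 201 of all 1815. CP at 3.6 kb was lower in HIF-2α than in KIN by a log2 difference of -1.02 ± 0.47 (95% interval -1.95 to -0.09, limma adjusted p = 0.407). The differences were -0.26 ± 0.47 at TFRC and -0.44 ± 0.47 at HMOX1 29.2 kb upstream. Leaving out 1 library moved the TFRC value to -0.00048 (without HIF-2α replicate 1) and the HMOX1 value to -0.94 (without HIF-2α replicate 1) or -0.066 (without HIF-2α replicate 2). On the recovered pileup, where 25.4% of regions passed, TFRC was lower in HIF-2α by -0.61 ± 0.21 (limma adjusted p = 0.0480) and CP by -0.23 ± 0.21 (adjusted p = 0.453). KIN is 1 clone with the endogenous promoter. The HIF-2α line uses the L30 promoter, keeps untagged endogenous HIF-2α and, according to the paper, was selected with puromycin. Clone, promoter, untagged HIF-2α and selection cannot be told apart.

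Counted as calls, no region passed the test by IDR or DBD, which this design could hardly let any region do. Fisher's exact test with 6 against 6 libraries gave 0% of the 25783 regions at an adjusted p under 0.05 by IDR and 0% by DBD. At an unadjusted p under 0.05 there were 359 regions by IDR and 143 by DBD, and 0 of the 22 member regions by either. The lowest p this design allows, 0.00216, became an adjusted p of 1 over so many regions. These tests therefore cannot show that a region did not differ. For tagged against WT, 4 of the 22 member regions had an unadjusted p under 0.05, a share like that of all regions (4645 of 25783).

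**Figure D5:**
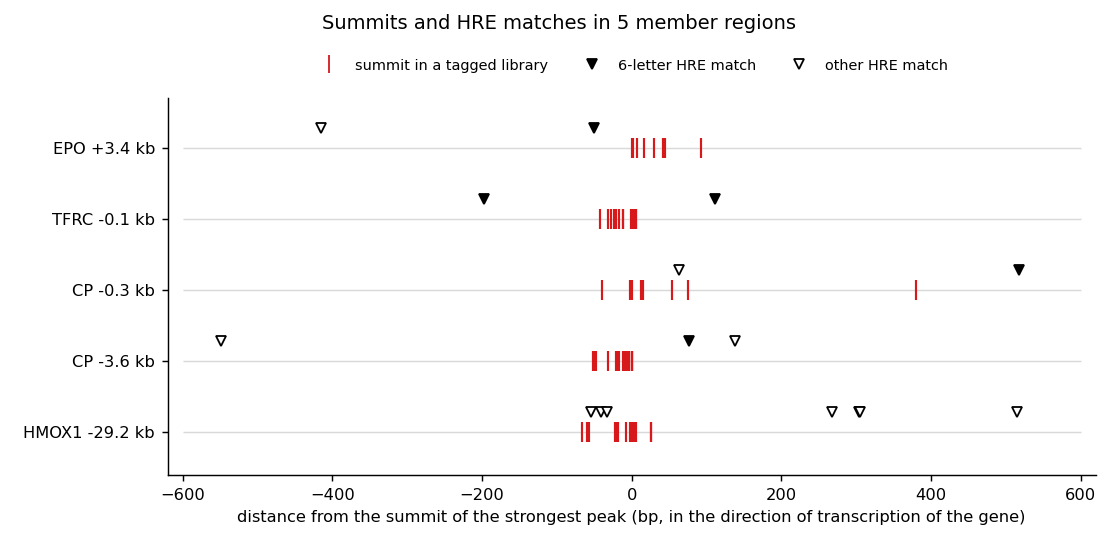
Summits of the tagged libraries (red ticks) and HRE matches (triangles, filled where they read TACGTG) in 5 of the 7 member regions called in at least 8 tagged libraries, by distance from the summit of the strongest peak (x axis, bp, in the direction of transcription). Filled triangles lie within 200 bp of the summit at EPO, TFRC and CP 3.6 kb upstream and not at HMOX1 29.2 kb upstream.

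An HRE core stood close to the summit at few of these regions. Within 50 bp, ACGTG or GCGTG on either strand was found at 3 of the 22 regions, against 24.3% of all 25783 regions. The 3 were HMOX1 at 29.2 kb upstream and 50.9 kb downstream and the HPS3 start site. Within 100 bp the count was 7 of 22, against 45.5%. The longer TACGTG, which contains the core, lay whole within 50 bp at 0 of 22, against 2.68% of all regions. Since the printed regions held it farther out, it was also counted within 200 bp, a window chosen after those positions were seen. It was then found at 4, EPO, TFRC and CP among them, of the 7 regions called in at least 8 tagged libraries, against 20.3% of the 9278 regions called that often. Over all 22 member regions the count was also 4, against 13.3% of all 25783 regions. These are letter matches, and occupancy of the motif itself was not measured.

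A wider list of 68 genes of erythropoietin signalling and iron and heme handling, which left out the 8 members, was called at its promoters at shares near or somewhat above those of all genes. Within 1 kb of a start site, 9 of 68 were called in at least 2 of 3 KIN libraries (13.2%, against 8.05% of all genes). The counts were 22 in HIF-1α (32.4%, against 26.9%), 6 in HIF-2α (8.82%, against 10.9%) and 16 in HIF-1α/2α (23.5%, against 19.2%). They were 24 in HIF-2α/1α (35.3%, against 25.3%) and 0 in WT (against 0.295%). In no tagged library were 33 of the 68 called, a count that was not taken over all genes. In all 15 tagged libraries, 3 of the 68 were called (4.41%, against 2.57% of all genes). The 3 were CPOX, an enzyme of heme synthesis, SLC39A14, a zinc and iron importer, and BLVRB, a reductase of heme breakdown products. CPOX was the strongest, with a promoter fold of 20.1 to 117 and a median percentile of 99.0, and had no WT promoter call. SLC39A14 followed at 5.66 to 47.8, also without a WT call, and BLVRB at 2.58 to 34.3 with 1 WT call. Next came LRP1, a scavenger receptor for heme-bound hemopexin, in 14 tagged libraries, then the iron chaperone PCBP1 and the ferritin autophagy receptor NCOA4 in 13, and the importer SLC39A8 and heme oxygenase-2 (HMOX2) in 12. Promoters of 18 of the 68 genes were called in at least 8 tagged libraries, against 17.7% of all genes. By role these were 5 of 9 mitochondrial iron and iron-sulfur cluster genes, 6 of 18 for heme synthesis and use, 2 of 11 for uptake, 2 of 9 for storage, 1 of 10 for the hepcidin axis, 1 of 5 for export and 1 of 6 for erythropoietin signalling, with no test between roles.

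Of the 25782 other regions, those whose rank percentile moved most like the CP region at 3.6 kb over the 15 tagged libraries, with 0 entered where a library had no call, lay 50.3 kb upstream of FZD5 (Spearman rho 0.912), 96.9 kb downstream of the SH3TC2 start site (0.893) and 15.6 kb upstream of NIN (0.868). The first and the last were called in 13 and 14 of the 15 libraries. The points share libraries and list lengths, and the values are a description.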

How the data were processed

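Cut&Run with anti-V5 and mouse IgG was run on 6 lines of 786-O cells with 3 biological replicates each (36 samples), and the 18 deposited peak lists were used, each from an anti-V5 library against its own IgG library. According to the study's methods, the authors aligned fragments of 10 to 700 bp to hg38 with Bowtie2 (2.3.4.1), called peaks per replicate with MACS2 (q 0.01, maximum gap 400 bp) and removed blacklisted regions with bedtools (2.28.0). Per the file layout, the deposited values are the fold enrichment ratio at the summit and the −log10 p and −log10 q of each peak. Sample groups came from the labels. Read alignments were not used here, and the sequence and motif positions of 2 regions are not reported here.

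Overlapping peaks (1 bp or more shared) from the 18 lists were joined into regions. Fragments at the summit and local background were recovered from the deposited fold and −log10 p. Whole fragments matched the deposited −log10 p within 0.001 for 100% of peaks in 17 libraries and 99.7% in HIF-2α/1α replicate 2, whose pileup was scaled by 0.949. Intervals cover the spread between libraries only. Gene positions are from GENCODE 44 (same build). Calls were compared with Fisher's exact test (SciPy 1.17.1), and log2 fold with limma (3.58.1, R 4.3.3) on group means, with Benjamini-Hochberg adjustment over all regions. Regions missing in any library compared did not enter limma. The scripts were tested on simulated data. All 8 members were described, with up to 3 regions each in full, ordered by tagged calls and percentile, and the rest counted. From the wider list, at most 8 genes were named by promoter calls. The members and lists were chosen with earlier results of these data known. The p-values measure the spread between replicates of single lines.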

Additional observations from a re-analysis of the deposited data

How the results depend on the processing

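Leaving out each library in turn, the members counted by gene window were 0 to 1 in WT, 3 to 4 in KIN, 4 to 6 in HIF-1α, 3 to 5 in HIF-2α (3 without its replicate 2), 5 in HIF-1α/2α and 5 to 6 in HIF-2α/1α. With 3 of 3 libraries required, HIF-2α fell from 6 to 3 and WT from 2 to 0. With summits within 1 kb of a start site the counts were 2 in HIF-1α, HIF-2α and HIF-1α/2α, 3 in HIF-2α/1α, 1 in KIN and 0 in WT. WT fell to 1 with a −log10 q of at least 5 and to 0 with 10 kb windows, and HIF-2α/1α to 3 when lists were cut to their strongest 3984 peaks. The 2 member regions past Fisher's exact test for tagged against WT became 0 without any of the WT libraries (range 0 to 2). HRE counts of 3 became 7 within 100 bp, 0 for TACGTG and 4 for TACGTG within 200 bp, the last chosen after seeing the data. With the recovered pileup, 1 member region passed by IDR, 1 by DBD and 1 for KIN, where 1162, 820 and 461 regions passed in all, against 62, 85 and 10 on the deposited fold. With no centring these counts were 4, 17 and 0, and with rank percentiles 1, 9 and 0.

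Several differences changed sign. By IDR, CP at 3.6 kb turned to -0.082 with no centring and to -1.57 percentile points. By DBD, TFRC turned to 0.34 and HMOX1 at 29.2 kb to -2.12 percentile points, and on the pileup CP turned to 0.16, HMOX1 at 8.1 kb to 0.048 and TFRC to 0.42, the last called. TFRC was also called for HIF-2α against KIN on the pileup (-0.61). For HIF-2α against KIN, TFRC turned to 0.26 and HMOX1 at 29.2 kb to 0.071 with no centring, and the latter to 1.11 percentile points and 0.15 on the pileup. The causes were not tested. Leaving out 1 library, the IDR difference ran from -0.019 to 0.48 at CP, 0.61 to 0.83 at TFRC, -1.14 to -0.71 at HMOX1 29.2 kb and -0.38 to 0.33 at HMOX1 8.1 kb. The DBD difference ran from -0.21 to 0.046 at TFRC and -0.13 to 0.30 at HMOX1 29.2 kb. For HIF-2α against KIN it ran from -1.34 to -0.79 at CP, -0.43 to -0.00048 at TFRC and -0.94 to -0.066 at HMOX1 29.2 kb. No member region was called in any of these fits.

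Exogenous libraries of the same replicate number deviated together weakly but always in the same direction (correlation 0.03 to 0.20 over 18 pairs, 8 of them above 0.1). Pairs of different numbers ran from -0.12 to 0.06. All 12 correlated best with a library of their own number, as did all 6 of KIN and HIF-2α, a hint from the data and not the design. The labels name no shared day or batch, and the main fits did not treat the libraries as paired. With replicate number as a block, 0 member regions passed by IDR, DBD or KIN. In all, 103, 131 and 7 regions passed with the block, against 62, 85 and 10 without it.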
